A study of Rattus norvegicus with 8 samples.

Results

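Enzymes that make, phosphorylate or break down NAD, or methylate nicotinamide, were examined in rat nucleus pulposus (NP) cells after knockdown of Sirt6. Sirt6 is a deacylase that itself consumes NAD. The group was chosen by gene name and holds 10 genes, Nampt, Nmnat1, Nmnat2, Nmnat3, Naprt, Nadsyn1, Nadk, Nnmt, Nnt and Cd38. A named row was found for 9 of the 10, and all 9 passed the filter on low counts and stood among the 13250 genes tested. Nmnat2, the Golgi-associated NMN adenylyltransferase known best from neurons, had no row under its name in the table that pairs identifiers with names, which keeps rows with more than 80 reads summed over the libraries, so it is reported as below that count filter and its reads were not analysed here. Some widely expressed genes, such as Sirt1 and Pgd, had no row under their names either, so a missing name does not by itself show a low level.

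NP cells populate the hydrated centre of the intervertebral disc. The cells were primary cultures from Sprague Dawley rats, grown in serum-containing medium, and the series record speaks of cells from 4 rats. All were transduced with lentivirus, and carried either control ShRNA (genotype SIRT6Ctrl/ShCtrl, called Sirt6-Ctrl, libraries S1 to S4) or ShSirt6 delivered as a mixture of clones (genotype SIRT6KD/ShSirt6, called Sirt6-KD, libraries S5 to S8). The comparison asks how the RNA of these enzymes differed when Sirt6 was depleted. The knockdown is a partial one in cultured cells, both groups carry the viral vector, and no untransduced culture was analysed here.

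Mammalian cells salvage NAD mostly from nicotinamide. Nampt joins nicotinamide to a phosphoribosyl group in the rate-limiting step, and the Nmnat enzymes add the adenylyl group that completes NAD. Naprt and Nadsyn1 serve the parallel Preiss-Handler route from nicotinic acid, Nadk makes NADP, Nnt passes hydride between NADH and NADP in the inner mitochondrial membrane, Nnmt methylates nicotinamide so that it leaves the cycle, and Cd38 is a membrane glycohydrolase that cleaves NAD.

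The stretches upstream of 3 members are shown because Cd38 was one of the members called in the comparison, and because Nmnat1 and Nmnat3 are enzymes of the same step whose reads shifted relative to each other. Each is the 250 bases before the start of the gene in RefSeq on GRCr8, printed 5′ to 3′ on the strand of the gene. Capitals mark the GC box GGGCGG, on either strand (reverse complement CCGCCC). The Cd38 stretch is chr14:71424506-71424755 on the minus strand, that of Nmnat1 is chr5:165211214-165211463 on the minus strand, and that of Nmnat3 is chr8:107771363-107771612 on the plus strand.
Cd38: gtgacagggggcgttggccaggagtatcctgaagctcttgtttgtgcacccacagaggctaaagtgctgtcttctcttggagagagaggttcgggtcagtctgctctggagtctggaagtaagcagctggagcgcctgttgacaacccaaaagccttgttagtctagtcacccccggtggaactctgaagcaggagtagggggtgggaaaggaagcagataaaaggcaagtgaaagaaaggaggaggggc
Nmnat1: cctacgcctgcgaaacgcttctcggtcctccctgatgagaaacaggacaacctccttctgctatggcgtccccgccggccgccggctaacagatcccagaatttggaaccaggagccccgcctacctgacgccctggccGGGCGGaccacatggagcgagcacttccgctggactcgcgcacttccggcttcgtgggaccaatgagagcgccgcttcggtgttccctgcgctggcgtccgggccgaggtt
Nmnat3: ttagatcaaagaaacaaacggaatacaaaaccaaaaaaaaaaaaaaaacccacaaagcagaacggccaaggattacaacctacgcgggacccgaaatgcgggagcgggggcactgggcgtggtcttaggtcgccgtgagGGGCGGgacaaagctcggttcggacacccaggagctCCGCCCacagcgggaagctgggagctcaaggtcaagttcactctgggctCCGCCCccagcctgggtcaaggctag

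Upstream sequences were matched for 6 of the 10 members, namely Cd38, Nadsyn1, Nmnat1, Nmnat2, Nmnat3 and Nnt. GC content was 54.4% for Cd38, 65.6% for Nmnat1 and 56.8% for Nmnat3, beside a median of 51.2% over 33469 genes. The GC box was present in 3 of the 6 members (Nadsyn1, Nmnat1 and Nmnat3) and in 30.5% of all upstream stretches. It occurred 3 times in Nmnat3, 1 time in Nmnat1 and not in Cd38. The E-box CACGTG (5.59% of all stretches) and the hypoxia response core ACGTG (16.6%), which lies within the E-box, were each found in Nnt only among the 6. No member held the AP-1 motif TGANTCA (6.34%) or the kappaB motif (1.3%). Both strands were searched for every motif, and a match is a description of letters in this window.

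Between 31994838 and 40124813 reads were counted per library, and 3 reads corresponded to 0.0727 to 0.0928 CPM (reads scaled to a common library total). Levels are CPM after TMM normalization, which scales libraries on the assumption that most genes do not differ. Of these reads, added ERCC spike-in RNAs took 6.27%, 9.80%, 3.08% and 2.97% in S1 to S4, and 2.15% to 2.47% in Sirt6-KD, so the spike-in share was higher in every Sirt6-Ctrl library. Under spike-in scaling, the median log2 fold change over all genes tested moved from -0.016 to 0.94. Of 17 listed NP marker names, 8 had a row (Pax1, Foxf1, Cd24, Acan, Sox9, Krt8, Car3 and Car12), and they summed to 230.5 to 260.6 CPM in Sirt6-Ctrl and 215 to 234 CPM in Sirt6-KD. Krt8 and Car3 fell (log2 fold change -1.32 and -2.70, edgeR adjusted p = 0.0441 and 0.0127). Car12 lay the other way (28.4 against 82.1 CPM, 1.53, adjusted p = 0.0776), and the other 5 were not called. Among those, Pax1 had an edgeR adjusted p of 0.0459 but a fold change under 1.5 (-0.43). Of the 8 markers, 6 had a negative log2 fold change and 2 a positive one. Krt18, Krt19, T, Tbxt, Col2a1, Shh and Noto had no row under their names. Summed annulus and fibroblast markers (5 of 6 with a row) ranged over 13410 to 25398 CPM in Sirt6-Ctrl and 8154 to 17567 CPM in Sirt6-KD, almost all of it Col1a1, mural markers (3 of 4) over 192 to 1335 and 254 to 848 CPM, and endothelial markers (1 of 5, Tek) over 0 to 0.509 and 0.179 to 0.592 CPM, while none of 4 erythroid markers had a row. Of these markers Scx, a tendon and annulus transcription factor, fell (63.6 to 27.7 CPM, -1.20, edgeR adjusted p = 0.049). The mural marker Acta2 measured 19.8, 33.8, 76.2 and 1048 CPM in S1 to S4. In S5 to S8 Acta2 measured 128, 113, 83.8 and 583 CPM, and it was not called (edgeR adjusted p = 0.843). Myh11 was likewise highest in S4 (43.5 CPM) and S8 (40.2 CPM) within their groups, so S4 and S8 set the top of the mural ranges. The control library S3 stood nearer to the other group than to its own: over all rows tested, spike-ins included, chi-square per degree of freedom between read counts was 112 to 128 for S3 against each Sirt6-KD library and 147 to 336 for S3 against S1, S2 and S4. Without S3, 1699 genes were called higher and 1913 lower, in place of 1063 and 1416. The part of the spike-in share and of these markers in the results that follow was not tested.

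The targeted gene separated the groups. Sirt6 measured 56.4, 54.3, 52.5 and 47.6 CPM in S1 to S4 and 21.8, 21.0, 19.2 and 20.6 CPM in S5 to S8, so the highest knockdown library was below the lowest control. Sirt6 fell by 1.35 on the log2 scale (SE 0.13, edgeR adjusted p = 0.000713). Relative to the median gene it measured -1.31 under spike-in scaling, where its own value was -0.36 (edgeR adjusted p = 0.567).

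Of the 9 members tested, Nampt and Cd38 rose in Sirt6-KD, none fell and 7 did not pass the test. The test was edgeR's quasi-likelihood test, and a call needed both a Benjamini-Hochberg adjusted p below 0.05 and more than a 1.5-fold difference. By this rule 18.7% of all genes tested were called, 8.02% higher and 10.7% lower, so 2 of 9 stands against a background in which many genes moved. At an unadjusted p under 0.05, 4 members were higher (Nampt, Cd38, Nmnat3 and Nnt) and 1 was lower (Nnmt), where 16.1% of all genes tested were higher and 20.4% lower at that threshold. DESeq2 called 3 members higher and 0 lower, and 11.4% of all genes higher and 12.5% lower (23.8% in all). The groups did not overlap for 3 members, Nampt, Cd38 and Nmnat3, with Sirt6-KD above in each, where the groups did not overlap for 30.4% of all genes tested, 14.8% with Sirt6-KD above and 15.6% with Sirt6-KD below. The median log2 fold change was 0.25 over the 9 members and -0.016 over all genes tested. Ranked by p, Nampt stood at 2302 and Cd38 at 2422 of 13250, so neither was among the genes with the smallest p. This rank reflects the spread between libraries as well as the size of the change. The libraries are separate samples by their labels, and the p-values measure only the spread between them. With 4 rats named for 8 libraries, control and knockdown libraries may share rats, which the unpaired test does not use. In bulk RNA, fewer cells of a type and less RNA per cell cannot be told apart.

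**Figure D1:**
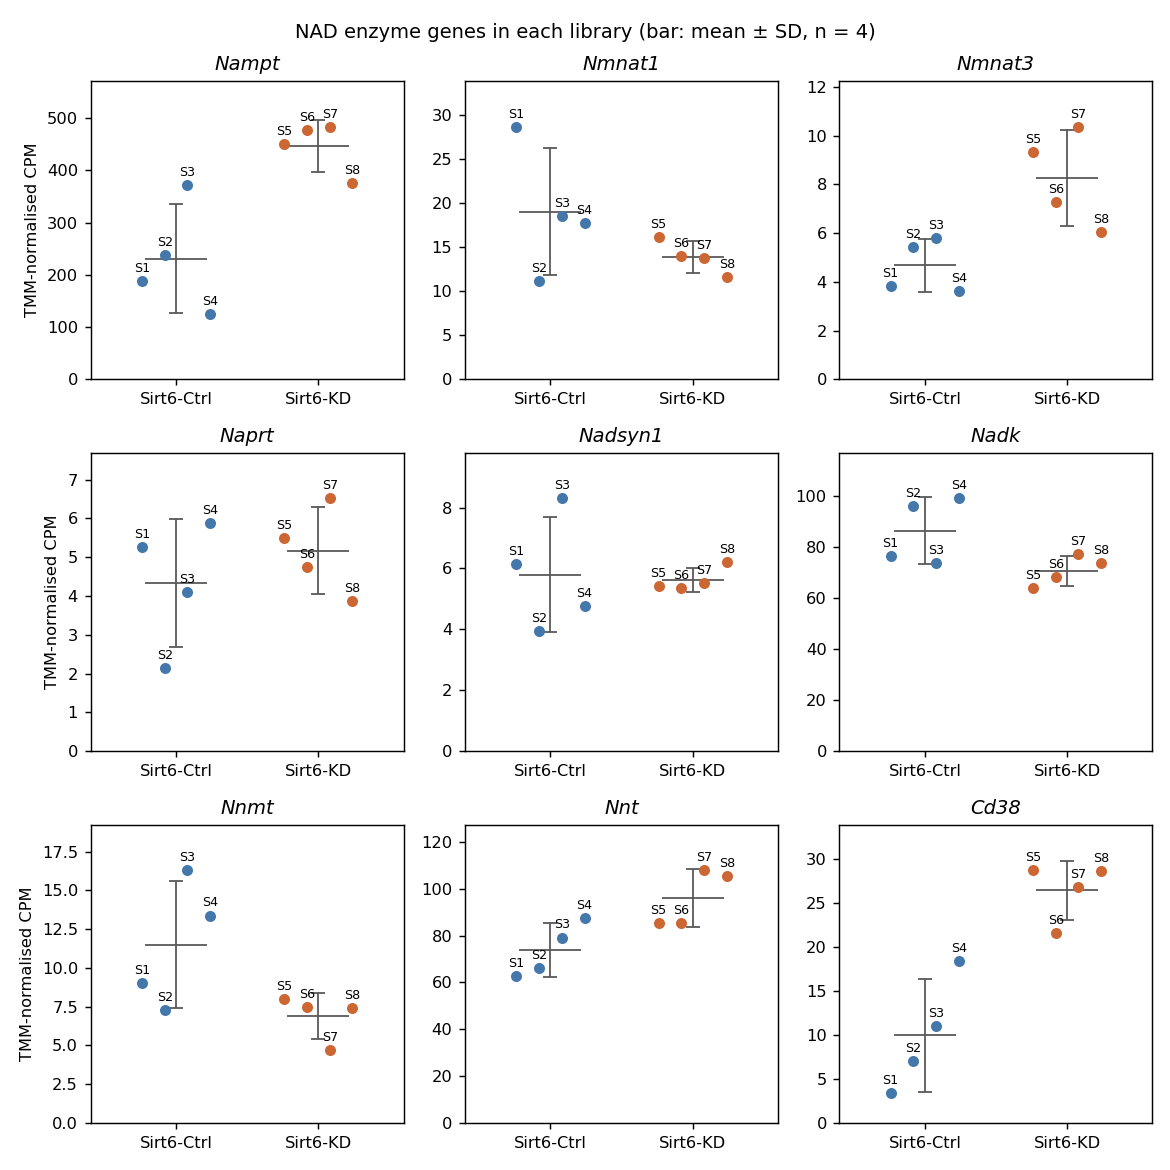
Level of each of the 9 members tested in each library (points, TMM-normalized CPM, 1 panel per gene) with the mean ± SD of each group (n = 4), Sirt6-Ctrl S1 to S4 and Sirt6-KD S5 to S8. Nampt, Cd38 and Nmnat3 had all 4 Sirt6-KD libraries above all 4 Sirt6-Ctrl libraries, and the other 6 members overlapped.

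Nampt, the rate-limiting enzyme of nicotinamide salvage, was 1.93 times as abundant in Sirt6-KD. It had 6546, 7671, 12645 and 5176 reads in S1 to S4 and 15544, 15954, 18552 and 12700 reads in S5 to S8. In CPM these were 188, 237, 372 and 125 in Sirt6-Ctrl (mean 231 ± 105, SD, n = 4) and 449.9, 477, 484 and 376 in Sirt6-KD (446 ± 49.3). S3 was high among the controls and S8 low among the knockdowns, so the groups were apart by only 3.60 CPM. The log2 fold change was 0.95 (SE 0.28, edgeR adjusted p = 0.0342), and 1.28 without S3 (adjusted p = 0.00234). Under spike-in scaling its value was 1.86 (edgeR adjusted p = 0.0801), 0.92 above the median gene. Leaving out any 1 of S1, S2, S5, S6 and S7 ended the call (edgeR adjusted p 0.0528 to 0.0947), as did leaving out S1 and S2 together (log2 fold change 0.85, adjusted p = 0.144).

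Cd38, which destroys NAD by cleaving off nicotinamide, was 2.65 times as abundant in Sirt6-KD. Its reads were 117, 226, 375 and 760 in S1 to S4 and 994, 722, 1031 and 967 in S5 to S8. The levels were 3.36, 6.99, 11.0 and 18.4 CPM in Sirt6-Ctrl (9.95 ± 6.46) and 28.8, 21.6, 26.9 and 28.6 CPM in Sirt6-KD (26.5 ± 3.37). The controls spread 5.48-fold from S1 to S4, while the knockdown libraries spread 1.33-fold, and the lowest knockdown stood 3.14 CPM above the highest control. The log2 fold change was 1.41 (SE 0.42, edgeR adjusted p = 0.037). Without S1 and S2 it was 0.85 and still called (edgeR adjusted p = 0.0444), and without S3 it was 1.46 (adjusted p = 0.0446). Leaving out any 1 library other than S3 and S4 ended the call, with adjusted p 0.0547 to 0.0906. Spike-in scaling gave 2.09 (adjusted p = 0.0885), 1.15 above the median gene.

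Cd38 is also carried by leukocytes, so leukocyte markers were read beside it. Of 9 listed leukocyte markers, 2 (Cd68 and Csf1r) had a row and neither was called. Their summed level was 1.48 to 3.28 CPM in Sirt6-Ctrl and 2.76 to 5.17 CPM in Sirt6-KD. Ptprc, which marks all leukocytes, had no row under its name, nor did Cd3e or Cd79a, and a missing name does not by itself show a low level. The part of these cells in the Cd38 level was not tested. The gene next to Cd38 on GRCr8 is Bst1, which encodes an ectoenzyme of the same family. Its reads were 780, 1276, 1681 and 2972 in Sirt6-Ctrl and 2510, 2398, 3619 and 2333 in Sirt6-KD, S4 lying within the Sirt6-KD range. Its log2 fold change of 0.75 (SE 0.29) did not pass the test (edgeR adjusted p = 0.0919), and neither did that of Fbxl5 on the far side of Bst1 (0.46, edgeR adjusted p = 0.105).

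**Figure D2:**
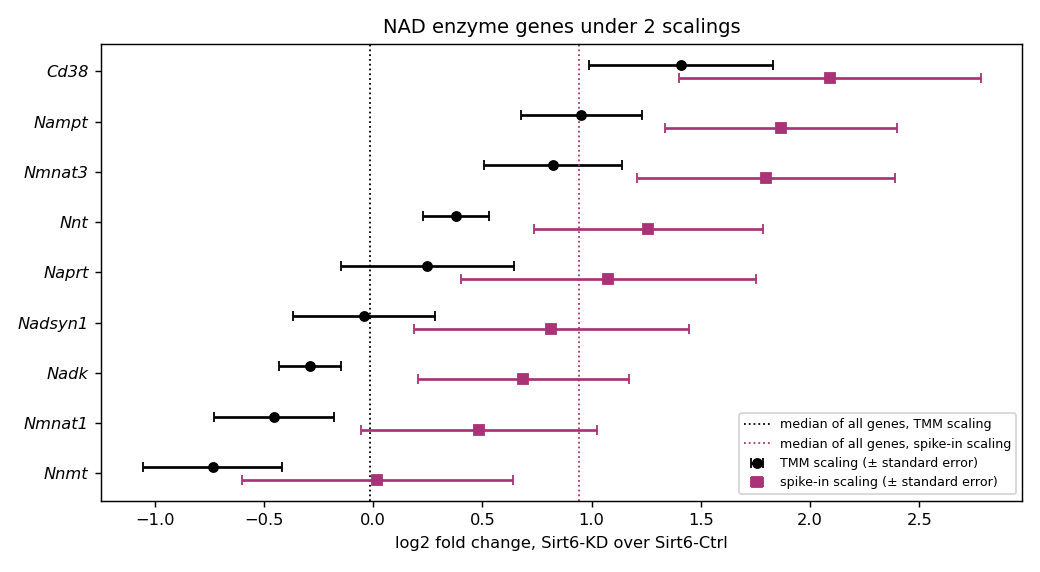
Log2 fold change (knockdown relative to control) with its standard error for each of the 9 members, under TMM scaling (circles) and spike-in scaling (squares), with dotted lines at the median of all genes under each. Under TMM scaling values run from -0.74 for Nnmt to 1.41 for Cd38, and under spike-in scaling every member lies further right, as does the median, which moved from -0.016 to 0.94.

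Nmnat3 and Nmnat1, of the NMN adenylyltransferase step, had log2 fold changes of opposite sign under TMM scaling, and neither passed the test alone. Nmnat3, the mitochondrial form, had 133, 176, 197 and 150 reads in Sirt6-Ctrl and 323, 244, 398 and 204 in Sirt6-KD. Its levels were 3.82, 5.44, 5.80 and 3.64 CPM against 9.35, 7.29, 10.4 and 6.04 CPM, a gap of 0.238 CPM between S3 and S8. The log2 fold change was 0.82 (SE 0.32, edgeR adjusted p = 0.087), and DESeq2 placed it past the threshold (0.84, adjusted p = 0.0353).

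Nmnat1, the nuclear form, measured 28.7, 11.2, 18.5 and 17.7 CPM in Sirt6-Ctrl and 16.2, 14.0, 13.8 and 11.6 CPM in Sirt6-KD. S1 was the highest library and S2 the lowest of all 8, so the groups overlapped. The log2 fold change was -0.45 (SE 0.28, edgeR adjusted p = 0.261). Without S1 it was -0.16 (edgeR adjusted p = 0.7065), and under spike-in scaling it was 0.49 (adjusted p = 0.498). Within a library, Nmnat1 gave 88.3%, 67.3%, 76.2% and 83.0% of the Nmnat1 and Nmnat3 reads in S1 to S4 and 63.4%, 65.7%, 57.1% and 65.8% in S5 to S8. Every knockdown library thus had a smaller Nmnat1 share than every control library, the nearest being S2 at 67.3% and S8 at 65.8%. Nmnat3 alone already separated the groups, and how often other gene pairs do so was not examined. The share was 78.7% ± 9.04 in Sirt6-Ctrl and 63.0% ± 4.09 in Sirt6-KD, a difference of -15.7 percentage points (p = 0.0286 by a two-sided exact permutation test, which is the smallest that 4 against 4 allows, and 0.0429 after Benjamini-Hochberg adjustment over 3 ratios). The share is of reads and not of molecules, since reads were not divided by transcript length, and it does not depend on how libraries are scaled.

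Nampt and Nnmt act on the same nicotinamide, so their reads were set against each other. Nnmt measured 9.05, 7.30, 16.3 and 13.4 CPM in Sirt6-Ctrl and 8.02, 7.50, 4.72 and 7.43 CPM in Sirt6-KD, with S2 among the knockdown values. Its log2 fold change was -0.74 (SE 0.32, edgeR adjusted p = 0.121), and it passed the test without S2 (-0.89, adjusted p = 0.0462) and without S1 and S2 (-1.09, adjusted p = 0.0268). For each Nnmt read there were 20.8, 32.5, 22.8 and 9.38 Nampt reads in S1 to S4 and 56.1, 63.6, 102.5 and 50.6 in S5 to S8. The geometric means were 19.5 and 65.6, and the log2 ratio was 1.75 higher in Sirt6-KD (4.29 ± 0.757 against 6.04 ± 0.45, p = 0.0286 by the same exact test, 0.0429 adjusted). Nampt alone already separated the groups, so this ratio is not independent support for a difference in Nampt. The members were also chosen with earlier results of these data known.

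**Figure D3:**
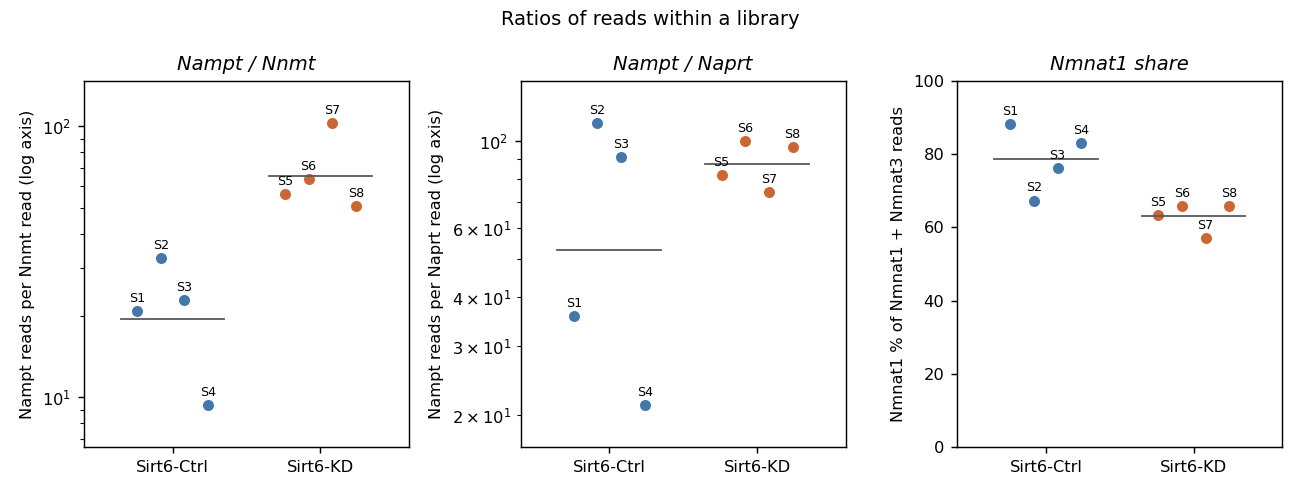
Read ratios within each library, for Nampt per Nnmt read and Nampt per Naprt read (log axes, lines at the geometric mean) and for the percent of Nmnat1 and Nmnat3 reads that were Nmnat1 (line at the mean). The first and the last show no overlap between Sirt6-Ctrl (S1 to S4) and Sirt6-KD (S5 to S8), and Nampt per Naprt read overlaps.

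The Preiss-Handler enzymes showed no difference beyond the spread between libraries. Naprt, which takes up nicotinic acid into this route, measured 5.26, 2.13, 4.09 and 5.89 CPM in Sirt6-Ctrl and 5.50, 4.75, 6.52 and 3.88 CPM in Sirt6-KD (log2 fold change 0.25, SE 0.40, edgeR adjusted p = 0.693). The log2 ratio of Nampt to Naprt reads was 0.73 higher in Sirt6-KD, at 5.72 ± 1.13 against 6.45 ± 0.206, which the exact permutation test did not separate (p = 0.371). Nadsyn1, the glutamine-dependent synthetase that finishes this route, measured 6.15, 3.96, 8.30 and 4.78 CPM against 5.41, 5.35, 5.53 and 6.21 CPM. The Sirt6-KD values lay within the Sirt6-Ctrl range (log2 fold change -0.04, SE 0.33, edgeR adjusted p = 0.943).

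Nadk and Nnt work on the NADP side. Nadk measured 76.7, 96.2, 73.8 and 99.2 CPM in Sirt6-Ctrl and 63.9, 68.3, 77.2 and 73.8 CPM in Sirt6-KD, with S7 within the control range and S8 level with the lowest control (log2 fold change -0.29, SE 0.14, edgeR adjusted p = 0.164). Nnt measured 62.7, 66.1, 79.2 and 87.7 CPM in Sirt6-Ctrl and 85.2, 85.2, 107.9 and 105.6 CPM in Sirt6-KD, where S4 exceeded the lowest knockdown library. Its log2 fold change was 0.38 (SE 0.15, edgeR adjusted p = 0.0986).

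**Figure D4:**
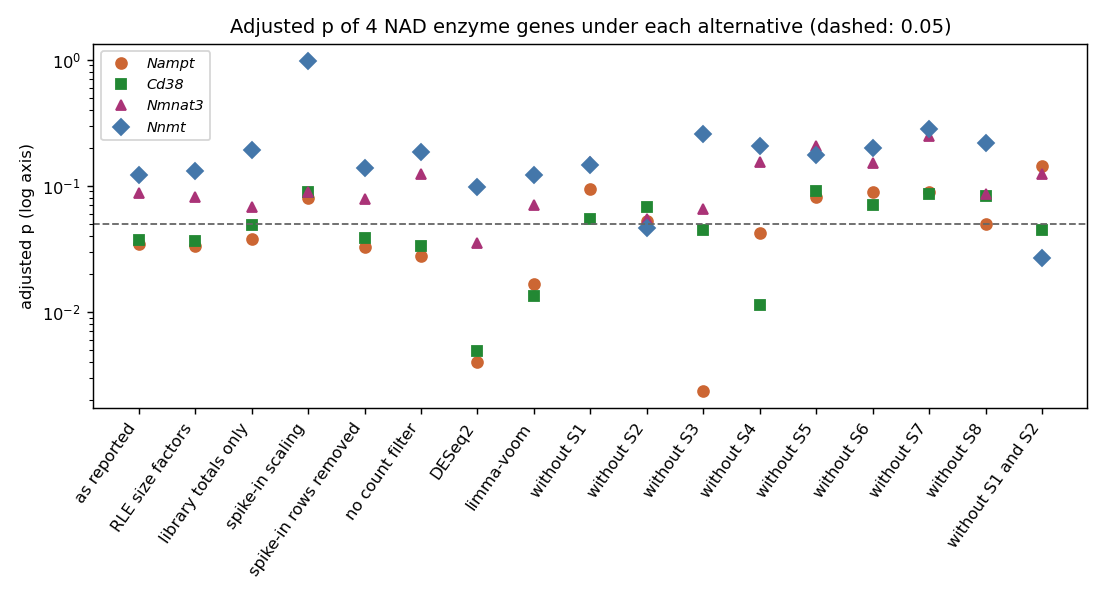
Adjusted p (log axis) of Nampt, Cd38, Nmnat3 and Nnmt as reported and under each alternative, with a dashed line at 0.05. Nampt and Cd38 lie on both sides of the line, Nmnat3 is below it with DESeq2 alone among the settings drawn, and Nnmt is below it without S2 and without S1 and S2.

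The members, like most genes tested, were less even in Sirt6-Ctrl. The coefficient of variation was larger in Sirt6-Ctrl than in Sirt6-KD for 8 of the 9 members, all but Nmnat3. Over all genes tested this held for 11346 of 13250 genes (85.6%). The highest Sirt6-Ctrl library exceeded the lowest 2.97-fold for Nampt, beside 1.29-fold in Sirt6-KD.

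Genes whose levels over the 8 libraries were most like those of the called members were found by the root mean square difference of log2 CPM, each gene centred on its own mean. For Nampt they were Mtss1 (0.0836), Nab2 (0.0851) and Gbe1 (0.0855), with log2 fold changes of 0.94, 1.04 and 0.89. For Cd38 they were Il1r1 (0.204), Zwilch (0.22) and Inhba (0.221), with log2 fold changes of 1.65, 1.43 and 1.55, of which Zwilch was not called (edgeR adjusted p = 0.052).

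The other genes of NAD metabolism were read as lists written from general knowledge. These lists are small, and their counts stand beside the 18.7% of all genes called (8.02% higher, 10.7% lower), so none is read as a result about a list. In NADP and NADPH production 8 genes were listed and 7 tested, and 1 rose and 2 fell (median log2 fold change 0.37). Idh2, the mitochondrial NADP-dependent isocitrate dehydrogenase, rose (0.74, edgeR adjusted p = 0.0402), and its cytosolic counterpart Idh1 (-1.07, adjusted p = 0.00326) and the cytosolic malic enzyme Me1 (-0.85, adjusted p = 0.00427) fell. Nadk2, the mitochondrial NAD kinase, was not called at 0.71 (adjusted p = 0.133). Of the NADH shuttles, 8 of 9 were tested, 1 rose and 2 fell (median 0.069): the malate dehydrogenases Mdh1 (-1.07, edgeR adjusted p = 0.00524) and Mdh2 (-0.78, adjusted p = 0.0195) fell, and the aspartate aminotransferase Got1 (0.59, adjusted p = 0.0373) rose. Under spike-in scaling none of these calls held: Idh1 measured -0.076 (adjusted p = 0.91), Idh2 and Got1 were higher but not called, and Me1, Mdh1 and Mdh2 turned to 0.20, 0.041 and 0.36. The call of Idh2 was lost when any 1 library other than S2 was left out (adjusted p 0.0645 to 0.107), and that of Got1 for any 1 other than S2 and S3 (adjusted p 0.0543 to 0.113) and for S1 and S2 together (adjusted p = 0.0678). That of Mdh2 was lost without S1, S5, S6 or S7 (adjusted p 0.0593 to 0.0667), and without S1 and S2 together its log2 fold change was -0.40 (adjusted p = 0.0823).

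Among sirtuins other than Sirt6, 5 of 6 were tested, Sirt2 rose (0.69, edgeR adjusted p = 0.00849) and Sirt7 fell (-1.12, adjusted p = 0.0084), with a median of -0.49. Spike-in scaling ended both sirtuin calls, with Sirt2 at 1.69 (adjusted p = 0.0801) and Sirt7 at -0.22 (adjusted p = 0.767). Of 14 ADP-ribosyltransferases 12 were tested, with a median of -0.0054. Parp8 fell (-0.69, edgeR adjusted p = 0.011; 0.28 and not called under spike-in scaling), and Parp3 had an adjusted p of 0.0458 but a fold change under 1.5. Neither Parp1 (0.18) nor any other gene of that list was called by edgeR, while DESeq2 called 2 genes of the list lower. At an unadjusted edgeR p under 0.05, Parp12 (-0.98) was the only gene of that list besides Parp8 and Parp3. No gene was called by edgeR in de novo synthesis from tryptophan (2 of 9 tested, median 1.56), riboside entry and transport (5 of 7, median -0.70), other NAD hydrolases (6 of 6, median -0.34) or methyl donor and nicotinamide clearance (5 of 5, median 0.16). Across these 4 lists, the genes with an unadjusted p under 0.05 were Pnp in riboside entry, Bst1 and Nudt13 (-1.88, edgeR adjusted p = 0.0768) among the hydrolases, and Mat2b in methyl donor supply, and DESeq2 called 1 hydrolase higher and 1 lower. Ido2 (2.24, edgeR adjusted p = 0.138) and Afmid (0.88) were the genes tested for de novo synthesis, each with at most 70 reads in a library.

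**Figure D5:**
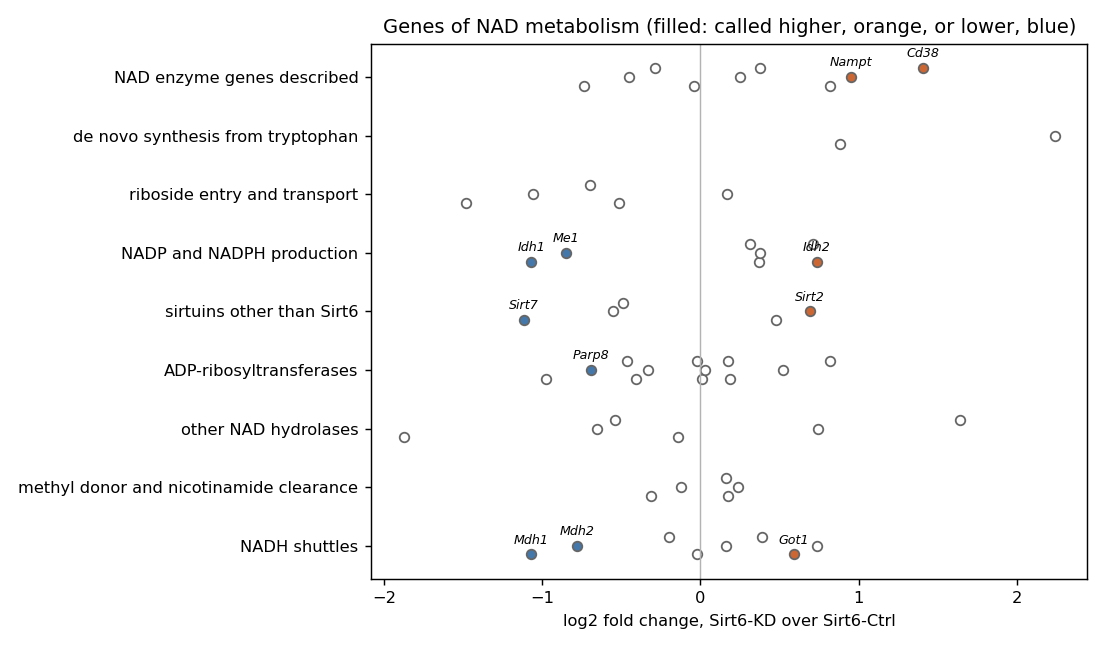
Log2 fold change (horizontal axis) of every tested gene of NAD metabolism, by list, with called genes filled in orange (higher) or blue (lower) and named. Called genes lie on both sides of 0 in NADP and NADPH production, sirtuins other than Sirt6 and NADH shuttles, Parp8 is lower among ADP-ribosyltransferases, and 4 lists hold no called gene.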

How the data were processed

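The authors deposited raw counts of reads per Ensembl gene and ERCC spike-in (32975 rows, 92 of them spike-ins), without normalization, for 4 Sirt6-Ctrl and 4 Sirt6-KD libraries. A second table deposited by the authors holds their log2 fold changes, p-values and normalized signal per library (counts divided by a size factor). It was used for gene names only, and 72 rows tested had none. The submitters' processing notes name Trimmomatic 0.36, STAR 2.5.2b, featureCounts, Subread 1.5.2, DESeq2 and Rnor_6.0. The strand setting is not given in the sources used here, so overlapping antisense genes cannot be told apart.

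Groups came from the sample labels. Counts were filtered with filterByExpr, which left 13313 rows (63 spike-ins), and were tested with edgeR 4.0.16 in R 4.3.3 (TMM, glmQLFit and glmQLFTest, two-sided, Benjamini-Hochberg over all rows tested). Read ratios were compared by exact permutation tests in scipy 1.17.1. Of 5 ratios planned, 3 were tested, since those with Nmnat2 had no value, and the share of Nmnat1 and Nmnat3 replaced them. Ratios were left out where a gene had under 10 reads. The depth of 31994838 to 40124813 counts sets the floor of 3 reads, which covers counting error only. The script was tested on simulated data. Alternatives were limma-voom (limma 3.58.1), DESeq2 1.42.0, other scalings and filters, and libraries left out. The genes named were all members, Sirt6, called genes of the lists, others where a count or contrast needed them, and the 3 nearest patterns of the called members. The members and lists were chosen with earlier results of these data known.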

Additional observations from a re-analysis of the deposited data

How the results depend on the processing

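Spike-in scaling changed most. Under it the genes called went from 1063 higher and 1416 lower to 20 and 4, the members called higher from 2 to 0, and Sirt6 to -0.36. Signs turned, with no gene called, for Nmnat1 (0.49), Nadsyn1 (0.82), Nadk (0.69), Nnmt (0.019), Me1 (0.20), Parp8 (0.28), Mdh1 (0.041) and Mdh2 (0.36). Idh1 (-0.076), Idh2, Sirt2, Sirt7 and Got1 kept their sign and lost their call. Nadsyn1 also turned to 0.015 with library totals only and to 0.015 with limma-voom, and ranged from -0.17 to 0.18 when single libraries were dropped. The cause was not tested.

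Leaving out S1 and S2 together gave 709 genes lower, 1 member higher (Cd38) and 1 lower (Nnmt). Leaving out each library in turn gave 445 to 1699 genes higher and 700 to 1913 lower, 0 to 2 members higher and 0 to 1 lower. The log2 Nampt to Nnmt ratio differed by 1.40 to 1.996 with 1 library left out and by 2.16 without S1 and S2, and the Nmnat1 share by -19.4 to -12.5 and by -16.5 percentage points. These kept their direction but could not pass, since the smallest exact p is 0.0571 for 3 against 4 and 0.133 for 2 against 4. DESeq2 called 1507 genes higher and 1652 lower, and 3 members higher. Nampt and Cd38 kept their direction in all 17 alternatives, and each was past the threshold in 10 of them. The setting with no fold threshold, counted among the 10, is the same fit under a looser rule and could not lose the call. With single libraries left out, the call held in 3 of 8 fits for Nampt and in 2 of 8 for Cd38. No paired analysis was possible because no label ties a knockdown library to a control library.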
